A study of Drosophila melanogaster with 2 samples.

Results

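The circadian clock genes described here are per, tim, Clk, cyc, vri, Pdp1, cry, cwo, sgg and dco of Drosophila melanogaster, 10 of the 13945 protein-coding genes on the 6 chromosome arms 2L, 2R, 3L, 3R, 4 and X. They are core components or regulators of the clock, chosen by name with earlier results of these data known, and all 10 were found in the annotation. A peak was given to a gene when its summit fell between 5 kb before and 5 kb past the gene. The peaks come from chromatin immunoprecipitation followed by sequencing (ChIP-seq) of the transcription factor Fer2, a basic helix-loop-helix (bHLH) protein. Both samples were whole embryos of 6 to 24 h from a transgenic line that carries Fer2 fused to green fluorescent protein (GFP), precipitated with an antibody to GFP. They are biological replicates 2 and 3 of 1 group, and there is no other group to compare them with. Which promoter drives the fusion protein is not given in the sources used here, and signal from a whole embryo is an average over its cell types.

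The fly clock is a loop of transcription and its repression. The bHLH-PAS proteins CLK and CYC pair on the E-box CACGTG and switch on per, tim, vri, Pdp1 and cwo, and the proteins PER and TIM return to the nucleus and block CLK and CYC. VRI and PDP1 repress and activate Clk in a second loop, CWO competes for E-boxes, CRY passes light to TIM, and the kinases encoded by sgg and dco set the stability and nuclear entry of TIM and PER. Fer2 is known for its part in the development of adult clock neurons and dopamine neurons.

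The authors deposited 4 lists of peaks on the dm6 build. Replicate 2, replicate 3 and the pool of both have 30000 peaks each, and the list that passed the authors' test of irreproducibility between replicates, called the thresholded list below, has 2862. Each peak carries the authors' own signal value, on a scale they do not give, which serves here only to rank peaks within a list, with rank 1 the highest. All 2862 thresholded peaks are also pooled peaks, and they hold the pooled ranks down to 2862. No read counts come with the peaks, and library depth is therefore unknown.

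The sequences at the highest thresholded peak in the range of each clock gene that has one are shown first, as the DNA on which these calls rest. The cyc window lies at the start of a neighbouring gene, Fibp, and not in cyc. Each is the plus strand of dm6, read 5′ to 3′ within 50 bp of the summit, with any E-box of the general form CANNTG in capitals. For cyc the window is cut to 30 bases because it overlaps an untranslated region.
sgg, chrX:2646363-2646463: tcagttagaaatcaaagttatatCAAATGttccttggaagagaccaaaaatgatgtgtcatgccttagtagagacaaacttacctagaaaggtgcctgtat
Pdp1, chr3L:7851006-7851106: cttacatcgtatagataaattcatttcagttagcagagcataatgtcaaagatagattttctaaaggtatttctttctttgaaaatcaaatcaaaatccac
cyc, chr3L:19817904-19817933: ttcttgttttcataacatcaatatatccta
dco, chr3R:31059183-31059283: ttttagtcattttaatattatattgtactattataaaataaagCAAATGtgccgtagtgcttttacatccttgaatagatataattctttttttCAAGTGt
cwo, chr3R:10393887-10393987: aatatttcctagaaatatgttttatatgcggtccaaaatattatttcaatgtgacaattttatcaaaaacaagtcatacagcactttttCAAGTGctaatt
None of these 5 windows held CACGTG, the form that CLK and CYC use. The windows of sgg, dco and cwo held other forms of the E-box, CAAATG or CAAGTG. The Pdp1 window held no E-box and 2 GATA sites. All 5 were rich in A and T, with a GC content of 35.6% at sgg, 27.7% at Pdp1, 25.7% at cwo and 22.8% at dco over 101 bases, and 23.3% at cyc over its 30 bases.

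Thresholded peaks were found at some of the clock genes and not at others. The 5 with a peak were sgg, Pdp1, cyc, dco and cwo, 5 of 10 against a background of 39.8% of all protein-coding genes. The 5 without were per, tim, Clk, vri and cry. The genes without a thresholded peak thus include per and tim, the repressors of the loop, and Clk, 1 of its 2 activators. Long genes offer more room for a peak: among genes of 10 kb or longer the clock genes had 3 of 6 (sgg, Pdp1 and cwo), against 51.5%, and among shorter genes 2 of 4 (cyc and dco), against 37.9%. These shares lie near the background, so the count says nothing particular about the clock. In the pooled list every clock gene had a summit in its range, as did 87.4% of all protein-coding genes. The same held in replicate 2 (87.4% of all genes) and in replicate 3 (91.6%).

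**Figure D1:**
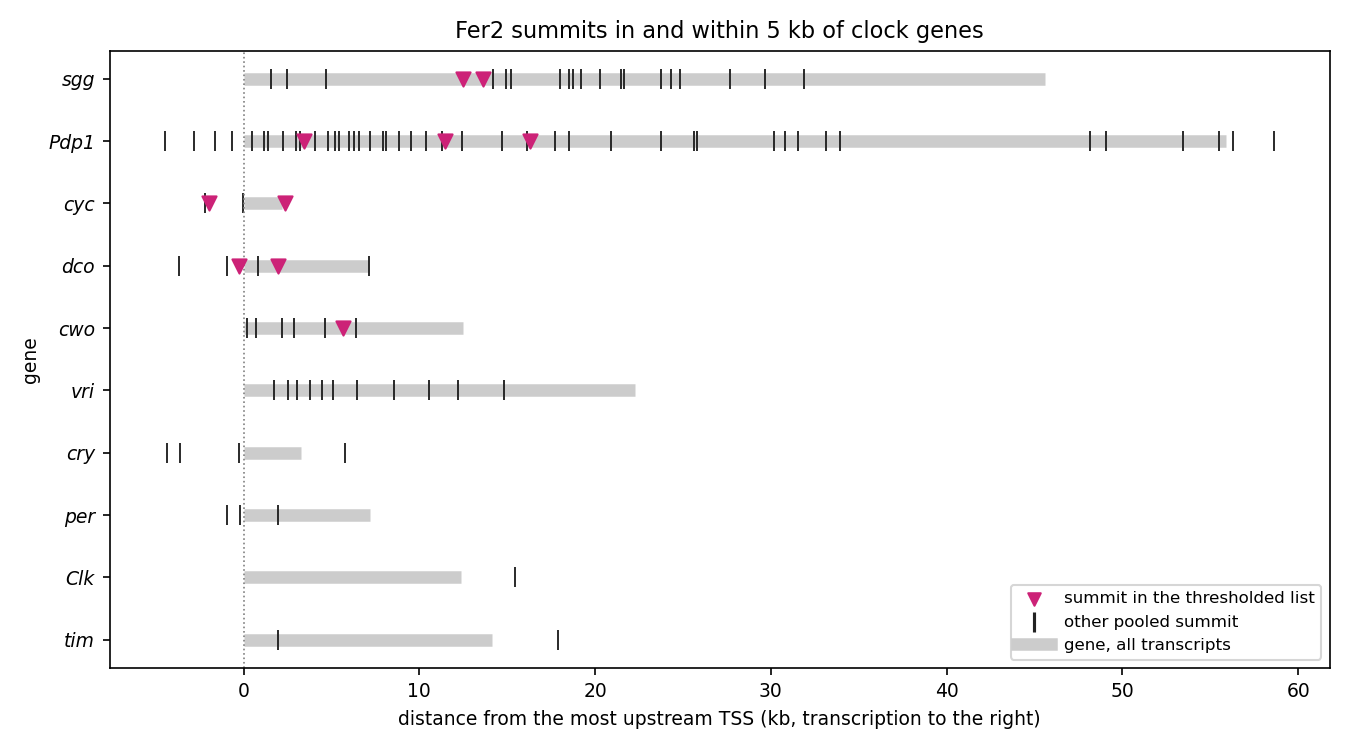
Position of Fer2 summits at the 10 clock genes. The x axis is the distance in kb from the most upstream transcription start site (TSS), with transcription to the right. Grey bars are genes, triangles are summits of the thresholded list and ticks are the other pooled summits. Genes run from the highest pooled peak (sgg) at the top to the lowest (tim). The 10 thresholded summits are at the upper 5 genes, and Clk has a single pooled summit, past its 3′ end.

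The highest peak of the 10 genes was at a kinase gene. At sgg (FBgn0003371, chrX:2633952-2679553), which encodes the fly glycogen synthase kinase 3, the thresholded peak at chrX:2646307-2646556 had a signal value of 264.3 and rank 363. It had rank 376 in replicate 2 and rank 388 in replicate 3, with summits 6 bp apart. The summit lies in an intron, 224 bp upstream of 1 of the 11 annotated start sites of sgg and 12461 bp downstream of the most upstream one. A weaker peak at chrX:2647377-2647746 had rank 2063 and was 925 bp downstream of a start site of sgg. It had rank 1615 in replicate 2 and rank 2676 in replicate 3.

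At dco (FBgn0002413, chr3R:31054085-31061210), which encodes the kinase Doubletime that phosphorylates PER, the higher of 2 thresholded peaks lay in an intron at chr3R:31059048-31059417. It had a signal value of 129.5 and rank 1304, and its summit was 1540 bp downstream of a dco start site. The summits of the replicates were 2 bp apart there, at rank 1088 in replicate 2 and rank 1900 in replicate 3. The other, at chr3R:31061310-31061679, had rank 2449 and lay 285 bp upstream of the gene. That upstream peak had rank 1236 in replicate 3, but no peak of replicate 2 overlapped it. Of the 2862 thresholded peaks, 9 (0.314%) had no overlapping peak in replicate 2, and the dco promoter is 1 of those 9.

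Pdp1 (FBgn0016694, chr3L:7811458-7867369) held the most peaks of the 10 genes. It encodes a bZIP activator of Clk and spans 55.9 kb with 4 start sites. Its highest thresholded peak, at chr3L:7850982-7851164, had a signal value of 190.0 and rank 687, and was in an intron 4492 bp downstream of a start site. It had rank 985 in replicate 2 and rank 613 in replicate 3, with summits 5 bp apart. The second, at chr3L:7855718-7856087, had rank 1432 and lay 355 bp upstream of an internal start site. It had rank 1340 in replicate 2 and rank 1803 in replicate 3. The third, at chr3L:7863744-7864113 and rank 1938, was in an intron 3440 bp downstream of the most upstream start site. The replicates differed more here, with rank 1226 in replicate 2, rank 2445 in replicate 3 and summits 226 bp apart.

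At cwo (FBgn0259938, chr3R:10388258-10400752), which encodes a bHLH-Orange repressor, the thresholded peak at chr3R:10393752-10394121 was in an intron, 5679 bp downstream of the start site. Its signal value was 120.7, at rank 1479, with rank 925 in replicate 2 and rank 2371 in replicate 3. The summits of the replicates were 4 bp apart. A second pooled peak of cwo, in its 5′ UTR 726 bp from the start, had rank 2891 and fell just below the 2862 that were kept. It had rank 2490 in replicate 2 and rank 3386 in replicate 3.

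The peaks given to cyc belong to its neighbours by position. The gene (FBgn0023094, chr3L:19813770-19815938), which encodes the partner of CLK, is 2.17 kb long, and neither of its 2 thresholded summits lies in it. The higher, at chr3L:19817870-19817966 with a signal value of 141.5 and rank 1132, is 1980 bp upstream of cyc but 49 bp inside the start of Fibp. It had rank 1414 in replicate 2 and rank 1254 in replicate 3. The other, at chr3L:19813387-19813756 and rank 2674, is 198 bp past the 3′ end of cyc and 233 bp upstream of Cyp305a1. It had rank 3893 in replicate 2 and rank 2591 in replicate 3. At the cyc start itself there was a weak pooled peak, 42 bp upstream, at rank 13514. When each summit was counted only for the protein-coding gene with the nearest start site, cyc had none and the clock genes with a thresholded peak were 4.

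The repressor genes per and tim had only weak peaks. The per gene is FBgn0003068, at chrX:2685580-2692780. The nearest pooled summit to its start was 217 bp upstream, at rank 6025, with rank 5519 in replicate 2 and rank 13831 in replicate 3. The replicate summits were 15 bp apart, at the same site but at different ranks. Of all protein-coding genes, 56.9% had a higher pooled peak in their range than per. The nearest thresholded summit beyond the 5 kb range lies 11.1 kb past the gene, and it is the peak of rank 4 in the whole list, beside Ugalt. At tim (FBgn0014396, chr2L:3493986-3508119) the highest pooled peak was in an intron, 1061 bp downstream of a start site, at rank 7615. It had rank 4651 in replicate 2 and rank 28211 in replicate 3, near the end of that list. Replicate 3 had a higher peak elsewhere in tim, in an intron 2111 bp downstream of a start site, at rank 8227. The other pooled peak of tim was 3775 bp past its 3′ end, inside CG15414, and 62.0% of protein-coding genes had a higher pooled peak than tim.

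The pooled windows nearest to the starts of per and tim, and the single window of Clk, are given for comparison with the windows above, in the same format.
per, chrX:2685313-2685413: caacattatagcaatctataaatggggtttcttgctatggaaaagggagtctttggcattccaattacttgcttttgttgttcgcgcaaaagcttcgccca
tim, chr2L:3506107-3506207: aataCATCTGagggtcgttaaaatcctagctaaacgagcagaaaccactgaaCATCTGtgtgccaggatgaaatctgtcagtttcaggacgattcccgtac
Clk, chr3L:7760091-7760191: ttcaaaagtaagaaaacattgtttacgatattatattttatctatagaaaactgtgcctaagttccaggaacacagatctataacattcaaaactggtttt
The tim window held the form CATCTG at 2 places, and the per and Clk windows held no E-box.

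Clk (FBgn0023076, chr3L:7763233-7775603), which encodes the partner of CYC, had the fewest pooled peaks. The single pooled summit in its range, at rank 7464, was 3092 bp past the 3′ end and 312 bp upstream of Hn. It had rank 4373 in replicate 2 and no overlapping peak in replicate 3. The one peak of replicate 3 in the range of Clk was elsewhere, 913 bp upstream of a start site, at rank 23752. The replicates therefore shared no site in this range. The nearest thresholded summit beyond the range was 6.15 kb from the gene, at rank 2481, with CG32373 as the nearest start site.

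In the pooled list vri and cry lay between these extremes. The gene vri (FBgn0016076, chr2L:5288944-5311223), which encodes the bZIP repressor of Clk, had 11 pooled summits, all in introns. The highest had a signal value of 71.5 and rank 3065, 4452 bp downstream of a start site, and the next rank 3101, 162 bp upstream of an internal start site. Both fell a little below the 2862 peaks kept in the thresholded list. The higher had rank 2171 in replicate 2 and rank 3142 in replicate 3, and the next had rank 3251 in replicate 2 and rank 3376 in replicate 3. The nearest thresholded summit beyond the range of vri was 15.7 kb away, beside Ncoa6. At cry (FBgn0025680, chr3R:19212154-19215442), which encodes the blue-light receptor, the highest of 4 pooled peaks was at rank 3813 and 4328 bp upstream. It had rank 8196 in replicate 2 and rank 3551 in replicate 3. The peak nearest to the cry start was 268 bp upstream at rank 24554, was matched in replicate 2 at rank 24613 and had no match in replicate 3. The nearest thresholded summit beyond the range of cry was 8.19 kb away, beside vib.

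**Figure D2:**
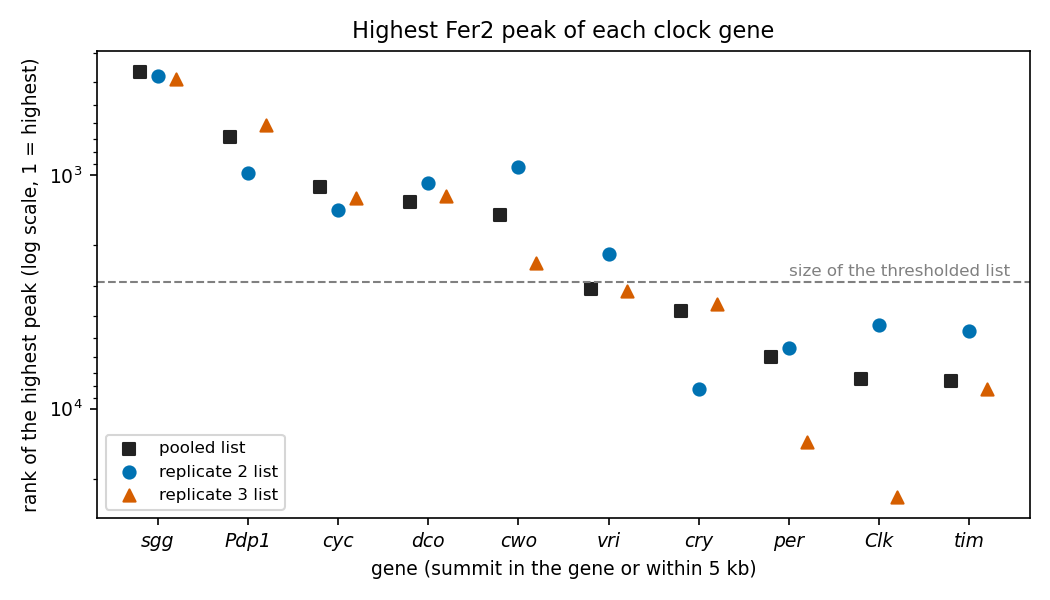
Rank of the highest peak of each clock gene in the pooled list (squares), replicate 2 (circles) and replicate 3 (triangles), on a log scale with higher peaks at the top. The dashed line marks the 2862 peaks of the thresholded list. At sgg the 3 ranks lie between 363 and 388, while at Clk replicate 2 gave 4373 and replicate 3 gave 23752.

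In order of the highest pooled peak the genes were sgg, Pdp1, cyc, dco, cwo, vri, cry, per, Clk and tim. Of protein-coding genes of all lengths, 7.95% had a higher pooled peak than sgg, and 13.9% a higher one than Pdp1. The ranges of sgg (55.6 kb) and Pdp1 (65.9 kb) are long and offer more room for a high peak. These shares were not matched for length. The order of neighbours was not stable between replicates. Replicate 2 placed cwo (925) above Pdp1 (985), dco (1088) and cyc (1414), and replicate 3 placed Pdp1 (613), dco (1236) and cyc (1254) above cwo (2371). The position of sgg at the head, and of per, tim and Clk below sgg, Pdp1, cyc, dco, cwo and vri, was the same in both. That of cry was not. Replicate 2 placed cry (8196) below per (5519), tim (4651) and Clk (4373). Replicate 3 placed it (3551) above tim (8227), per (13831) and Clk (23752).

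Some summits lay at the start sites of the clock genes themselves. A thresholded summit lay within 500 bp of an own start site in 3 of the 10 genes (sgg, Pdp1 and dco), against 15.9% of all protein-coding genes. In the pooled list, which is longer and contains the thresholded one, 8 of 10 had one, against 49.6%, and the exceptions were tim and Clk. These shares were not matched for the number of start sites, which was 11 at sgg, 4 at Pdp1 and 2 at dco. The dco summit counted here is the one without an overlapping peak in replicate 2. Of the 106 pooled summits in the ranges of the clock genes, 69.8% (95% Wilson interval 60.5 to 77.7) were in introns away from any start site, against 42.9% of all 30000 pooled summits. Within 500 bp of any start site were 19.8% (13.3 to 28.4), against 28.9%. Intervals of this kind cover the count of peaks only, and summits of 1 gene are not independent. The genes that hold most of these summits, Pdp1 and sgg, are long and mostly intron.

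Summits were crowded in Pdp1 and sparse in Clk and tim. Pdp1 had 47 pooled summits in its range, or 7.13 per 10 kb, against 2.24 per 10 kb over the 6 arms. The replicates gave Pdp1 50 summits (replicate 2) and 44 (replicate 3). Of the 1977 protein-coding genes of 10 kb or longer, 48 (2.43%) had a higher density of pooled summits than Pdp1. The density was 3.78 per 10 kb at sgg, with 21 summits, and 3.50 at dco, 3.41 at vri, 3.29 at cyc, 3.11 at cwo and 3.01 at cry. It was 1.74 per 10 kb at per, 0.829 at tim and 0.447 at Clk, each below the arms as a whole. Among the genes of 10 kb or longer, 93.3% had a higher density than Clk and 87.3% a higher one than tim. The range of all 10 genes together, 278.6 kb, held 3.80 pooled summits per 10 kb, without Pdp1 it held 2.77, and without Pdp1 and sgg it held 2.36, beside the 2.24 of the arms.

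**Figure D3:**
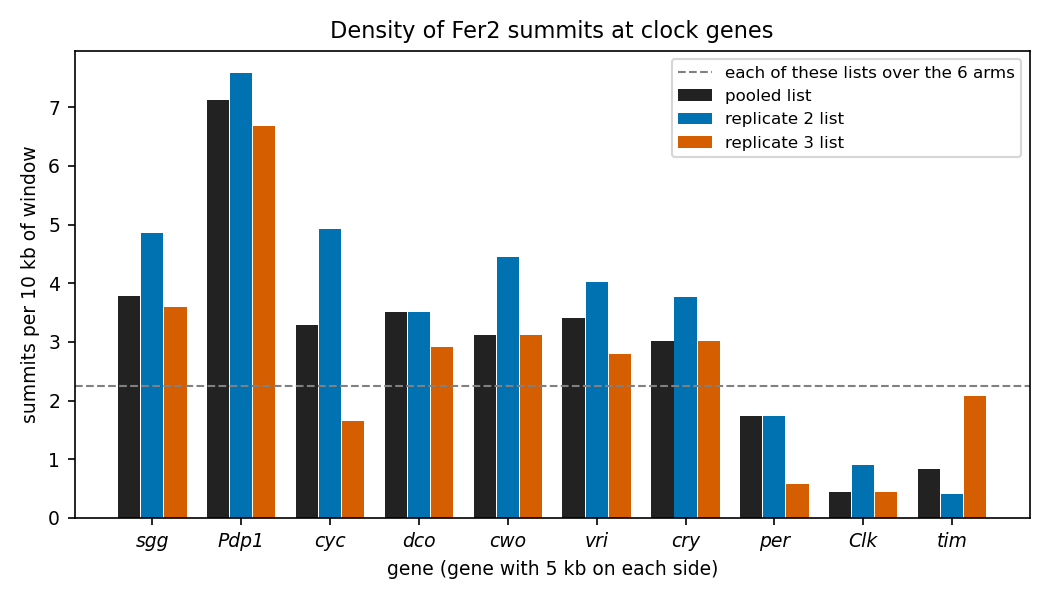
Summits per 10 kb in the gene and 5 kb on each side, for the pooled list, replicate 2 and replicate 3. The dashed line is the density of each list over the 6 arms, 2.24 per 10 kb. Pdp1 stands highest in each of the 3 lists. The genes per and Clk stand below the line in each, and tim does too, at 2.07 per 10 kb in replicate 3 and 0.414 in replicate 2.

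Many of the clock gene peaks were found in both replicates. Of the 106 pooled peaks, 66 (62.3%, 95% Wilson interval 52.8 to 70.9) were overlapped by a peak of each replicate by at least 1 bp, against 48.4% of all pooled peaks. Another 35 were overlapped in 1 replicate and 5 in neither. Pdp1 supplied 33 of the 66. Without Pdp1 the share was 55.9%, and without Pdp1 and sgg it was 52.6%. The clock gene peaks also ranked higher, with a median pooled rank of 9487 against 15000.5 for all pooled peaks. The shares were not matched for rank. A peak of a replicate can match more than 1 pooled peak where these overlap. Of the thresholded peaks 9 of 10 were found in both replicates, against 99.4% of the whole thresholded list, the exception being the dco promoter. The thresholded list came from a test of these same replicates and holds the 2862 highest pooled ranks. This count is therefore fixed in large part by how that list was made. At those 9 the median gap between the replicate summits was 15 bp, with 226 bp at 1 Pdp1 peak, and over the 66 it was 88 bp.

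**Figure D4:**
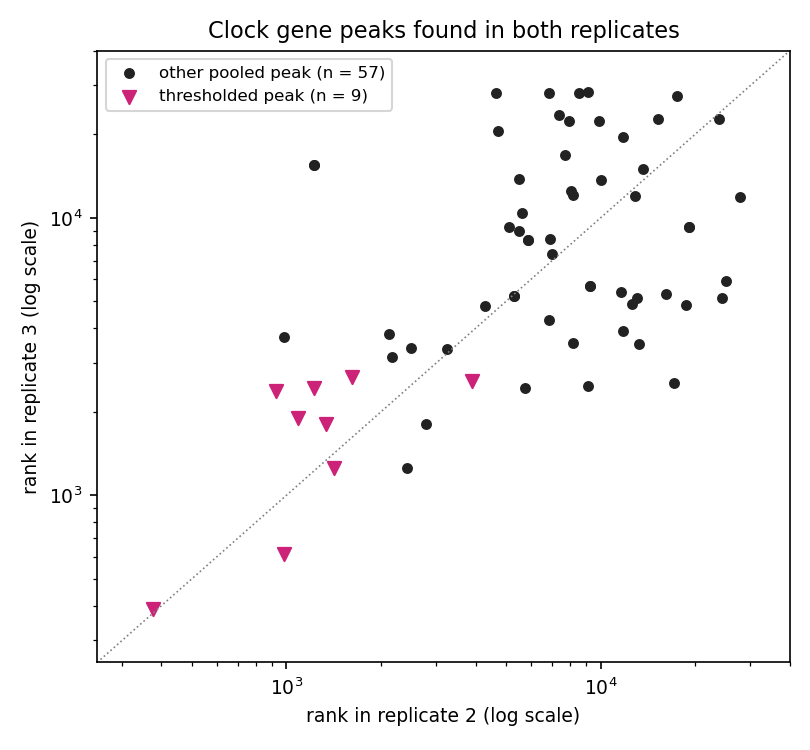
Rank in replicate 2 (x axis) and in replicate 3 (y axis) of the 66 pooled clock gene peaks that both replicates overlap, on log scales. Triangles are the 9 thresholded peaks and dots the other 57 pooled peaks. The thresholded peaks rank 3893 or better in replicate 2 and 2676 or better in replicate 3, and the others scatter widely about the line of equal rank.

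In the pooled list E-boxes were about as frequent at clock gene summits as at all summits. Either strand was read up to 50 bp from each summit. The word CANNTG was at 43.4% of the 106 pooled summits (95% Wilson interval 34.4 to 52.9), against 39.9% of all pooled summits. At the thresholded summits it was at 6 of 10, against 32.4%, with a Wilson interval of 31.3 to 83.2. Several of these summits share a gene and are not independent, so the interval cannot decide whether the shares differ. CACGTG was at 0 of the 10 thresholded summits, against 0.804%, and at 2 of the 106 pooled summits, or 1.89%, against 1.18%. The homeodomain word TAATTA was at 6.60% of the pooled summits, against 7.13%. The GATA site, searched as GATA with A or T before it and A or G after it, was at 17.9%, against 19.1%. The promoter element TATCGATA was at 0.943%, against 0.783%, and CGATA, which it contains, at 9.43%, against 13.0%. GC content within 50 bp of the thresholded clock summits was 30.9% ± 8.50 (SD, n = 10 peaks), against 32.4% ± 9.30 over 2862 peaks.

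The 2 pooled summits with CACGTG were weak ones in introns of cwo and sgg, and they are shown because that word is the form through which CLK and CYC act. The cwo window is from the peak of pooled rank 10899, in which the word lies 2 bp from the summit, and the sgg window from the peak of rank 23578.
cwo, chr3R:10390406-10390506: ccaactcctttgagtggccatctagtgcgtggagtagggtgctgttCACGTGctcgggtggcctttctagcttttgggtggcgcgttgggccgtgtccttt
sgg, chrX:2654182-2654282: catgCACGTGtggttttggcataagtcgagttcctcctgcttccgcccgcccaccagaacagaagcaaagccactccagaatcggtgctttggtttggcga
The cwo peak had rank 25081 in replicate 2 and rank 5905 in replicate 3, with summits 358 bp apart, so the replicates did not place it alike. The sgg peak was found in replicate 2 at rank 11342 and not in replicate 3.

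Most CACGTG words of the clock genes lay away from Fer2 summits, as did most of those on the arms. Their ranges held 62 of them, or 2.23 per 10 kb, against 1.23 per 10 kb over the arms. The most were at cwo (15), Pdp1 (14), per (11) and sgg (10), and tim, Clk, cyc and cry had 2 each. Words where the ranges of sgg and per overlap count for both. Within 150 bp of a pooled summit were 9 of the 62 (14.5%), against 7.12% of the 16428 on the arms, where summits are also fewer per kb than in these ranges. Of the 7 that lay within 1 kb upstream of an own start site, none was nearer than 176 bp to a pooled summit. The same count over the promoters of all genes was not made. The 7.12% covers words anywhere on the arms and is not a matched share for these 7, so nothing about the clock is read from them. The per promoter is the best studied case, with an upstream E-box in the element that drives its cycling. The CACGTG nearest upstream of the per start lies at 528 bp, and the per summit at 217 bp upstream was 311 bp from it.
per, chrX:2685038-2685067: aaagccgccgctCACGTGgcgaactgcgtg

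Other genes of the clock pathway were read in the same way, from a list of 35 in 6 groups. A thresholded summit lay in or within 5 kb of 20 of them (57.1%), against the 39.8% of all protein-coding genes. Among protein-coding genes of 10 kb or longer that share was 51.5%. The list holds long genes such as Eip75B (113.7 kb) and nmo (75.1 kb), and the 57.1% was not matched for length. A pooled summit lay near all 35, against 87.4% of all protein-coding genes. Of the 20, the nearest start site to the highest peak was the gene's own in 6 (tws, ctrip, NAT1, norpA, Eip75B and kay), and the summit lay outside the gene in 14. Among kinases, phosphatases and their partners 7 of 8 had a thresholded summit, namely CkIIalpha, CkIIbeta, nmo, tws, wdb, mts and Bdbt. The summit given to CkIIalpha, the catalytic subunit of casein kinase 2, had rank 1578 and was nearest to RpL10. That of tws, a regulatory subunit of protein phosphatase 2A, had rank 1820 and was in an intron 3877 bp from its start. Of the 6 other transcription and chromatin factors all 6 had one, led by Mef2 (rank 8, nearest to Pal1) and brm (rank 53). The brm summit lay 121 bp upstream of Arl1, the nearest start, and 145 bp upstream of brm itself. Next in rank were nej, Eip75B, kay and Hr51. Eip75B, a nuclear receptor gene, carried its highest peak 37 bp from its own start, at rank 405.

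The other 4 groups hold 4 to 8 genes each, and no difference between groups was tested. Their counts stand beside the 39.8% of all protein-coding genes and were not matched for length. In protein degradation 3 of 5 had a thresholded summit, which were jet, Usp8 and ctrip, and the summit given to jet (rank 112) lay 2709 bp past its 3′ end. The summit given to Usp8 (rank 1062) lay 317 bp past its 3′ end and was nearest to meigo. In light input 2 of 4 had one, norpA and Rh5. The highest summit given to Rh5 (rank 215) lay 1443 bp past its 3′ end and was nearest to lncRNA:CR44588. The peak of norpA, which encodes the phospholipase C of phototransduction, had a signal value of 745.6 and rank 34 and was in an intron 1376 bp from a start site. It had rank 57 in replicate 2 and rank 27 in replicate 3. Among translation and RNA binding genes NAT1 alone of 4 had one, 139 bp upstream of its start at rank 1322. Of 8 output peptides, receptors and channels 1 had one, the receptor gene Pdfr at rank 1287, and that summit was 3649 bp past its 3′ end. The Pdf gene, for the main neuropeptide of clock neurons, had 3 pooled peaks, of which the highest ranked 23105.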

How the data were processed

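Fer2 ChIP-seq was read from 2 samples of 1 group, with fragments of 200 to 800 bp, per the labels. Per the text files deposited with the lists, peaks were called on dm6 for each replicate and the pool against the same control alignment, which is not analysed here, and the thresholded list was derived from those 3. Neither the caller nor its settings nor the threshold is stated in these sources. The deposited signal value is a score of unstated scale, and the deposited −log10 q-value (0.152 to 3.83 in the pooled list) was not used for ranking. Peak widths, most often 370 bp in the pooled list, mainly reflect a set value.

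Genes came from Ensembl release 115 (BDGP6) without transposable elements and sequence from the RefSeq Release 6 assembly, which is dm6. All peaks lay within the 6 arms. Start and end are 1-based, and the summit is column 2 plus column 10. Distances to a start site are to the nearest transcript start of the gene. Peaks were matched between lists by overlap of at least 1 bp, taking the nearest summit. With 1 group and no control sample no test was run, and shares carry 95% Wilson intervals. Python 3.11.15, numpy 2.4.6, pandas 2.3.3 and scipy 1.17.1 were used, and the counting steps were tested on simulated data. The genes, lists, named peaks and alternatives were chosen with earlier results of these data known. Windows with CACGTG and the per E-box were chosen after their values were seen.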

Additional observations from a re-analysis of the deposited data

How the results depend on the processing

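The number of clock genes with a thresholded peak, 5, ranged from 4 to 7 with other ranges around the gene (gene body, 1 kb, 10 kb), with the nearest start site and with the 1431 highest thresholded peaks, and every such count was within 1.5 times of it. With the 2862 highest peaks of a single replicate in place of the thresholded list it was 5 without replicate 2 and 6 without replicate 3, where vri was added. Per and tim had none under any of these alternatives, and Clk and cry had one with 10 kb alone. The 10 thresholded peaks became 4 with the 1431 highest, a list that is smaller by construction. They were 13 without replicate 2 and 13 without replicate 3. The number of clock genes with a pooled peak, 10, was 7 with the gene body only, 9 with 1 kb and 10 with 10 kb. The pooled peaks of the clock genes, 106, ranged from 84 to 134. The share found in both replicates, 62.3%, was 49.1% (all pooled peaks 37.2%) when an overlap of 50% of the peak was asked, and 39.6% (28.9%) when summits had to lie within 100 bp, both stricter by construction. The share with CANNTG, 43.4%, was 22.6% within 25 bp (all pooled peaks 21.7%) and 62.3% within 100 bp (63.8%), as windows of other lengths give. No paired analysis was possible because there is 1 group. Among the limits are that the lists hold no read counts and that there is no second group.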
